A study of Mus musculus with 2 samples.

Results

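The subunits of the mitochondrial respiratory chain and of ATP synthase were read on 2 single-colour oligonucleotide arrays hybridised with mouse liver RNA. Members were all probe sets assigned to 1 gene whose symbol begins with Ndufa, Ndufb, Ndufc, Ndufs, Ndufv, Uqcr or Atp5, or with Cox and a digit, together with Cyc1 and Cycs. This gave 103 probe sets of 74 genes, out of 10833 probe sets with 1 gene name on the array. Of the 74 genes, 66 encode subunits, their tissue isoforms or cytochrome c, and 8 encode assembly factors that the symbols also take in.

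Both samples were titled liver and described as 1 commercial preparation of liver total RNA, and the source field of both read spleen. No strain, genotype, age, sex, treatment or number of animals was given, and neither were separate extractions. The 2 arrays form a single group, so no test between conditions was possible, and the spread between them may be technical. The values are signal intensity on a linear scale, with a mean of 500.5 on both arrays once 2% of probe sets at each end were set aside, and the number of arrays limits their precision. All 9 measured hepatocyte markers, such as Alb (64627 on replicate 1 and 65800 on replicate 2), were above the background defined below on both arrays. None of 8 lymphoid and spleen markers and neither of 2 brown fat markers was above it on both. Cd4, a T cell and macrophage surface protein, passed on replicate 2 alone (337.3 and 503). Cd79a came near the line of replicate 1 (450.3 and 333.4). Above it on both arrays were 2 of 12 muscle and heart markers, 1 of 5 testis markers and both measured red cell markers. Over the whole array 31.8% of genes were above it by their brightest probe set. The muscle and testis markers also belong to the genes that set this background.

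Oxidative phosphorylation couples the oxidation of NADH and succinate to ATP synthesis in the inner mitochondrial membrane. Complex I takes electrons from NADH and complex II from succinate, ubiquinone carries them to complex III, cytochrome c carries them on to complex IV, and complex IV reduces oxygen. Complexes I, III and IV pump protons, and ATP synthase lets the protons return through a rotating ring and makes ATP. Most subunits are encoded in the nucleus and some in mitochondrial DNA; the members here are nuclear. Several complex IV subunits have paired isoforms, a widely expressed or liver form and a form of heart and skeletal muscle or of testis. Hepatocytes rely on this machinery for gluconeogenesis, urea synthesis and fatty acid oxidation.

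The members lay towards the bright end of the array. On replicate 1 their median signal was 1311 and that of all probe sets with 1 gene name 173.4, and on replicate 2 these were 1275 and 167.8. A percentile is used below for the share of those 10833 probe sets with a lower mean log2 signal, ties counted in equal parts. The members' median percentile was 89.5. Background was set, on each array, at the 95th percentile of 108 off-tissue genes, known from striated muscle, retina, testis or brain, which fell at 460.1 on replicate 1 and 379.7 on replicate 2. Above it on both arrays were 61 of the 103 member probe sets (59.2%), against 26.5% of all probe sets with 1 gene name. By genes, each read from its brightest probe set, 55 of 74 (74.3%) were above it, against 31.8% of all genes. The brightest set of 47 member genes (63.5%) lay at percentile 90 or higher, where 12.2% of all genes did. How strongly a probe set binds differs from set to set, so a percentile gives a place on the array and no order of transcript abundance.

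**Figure D1:**
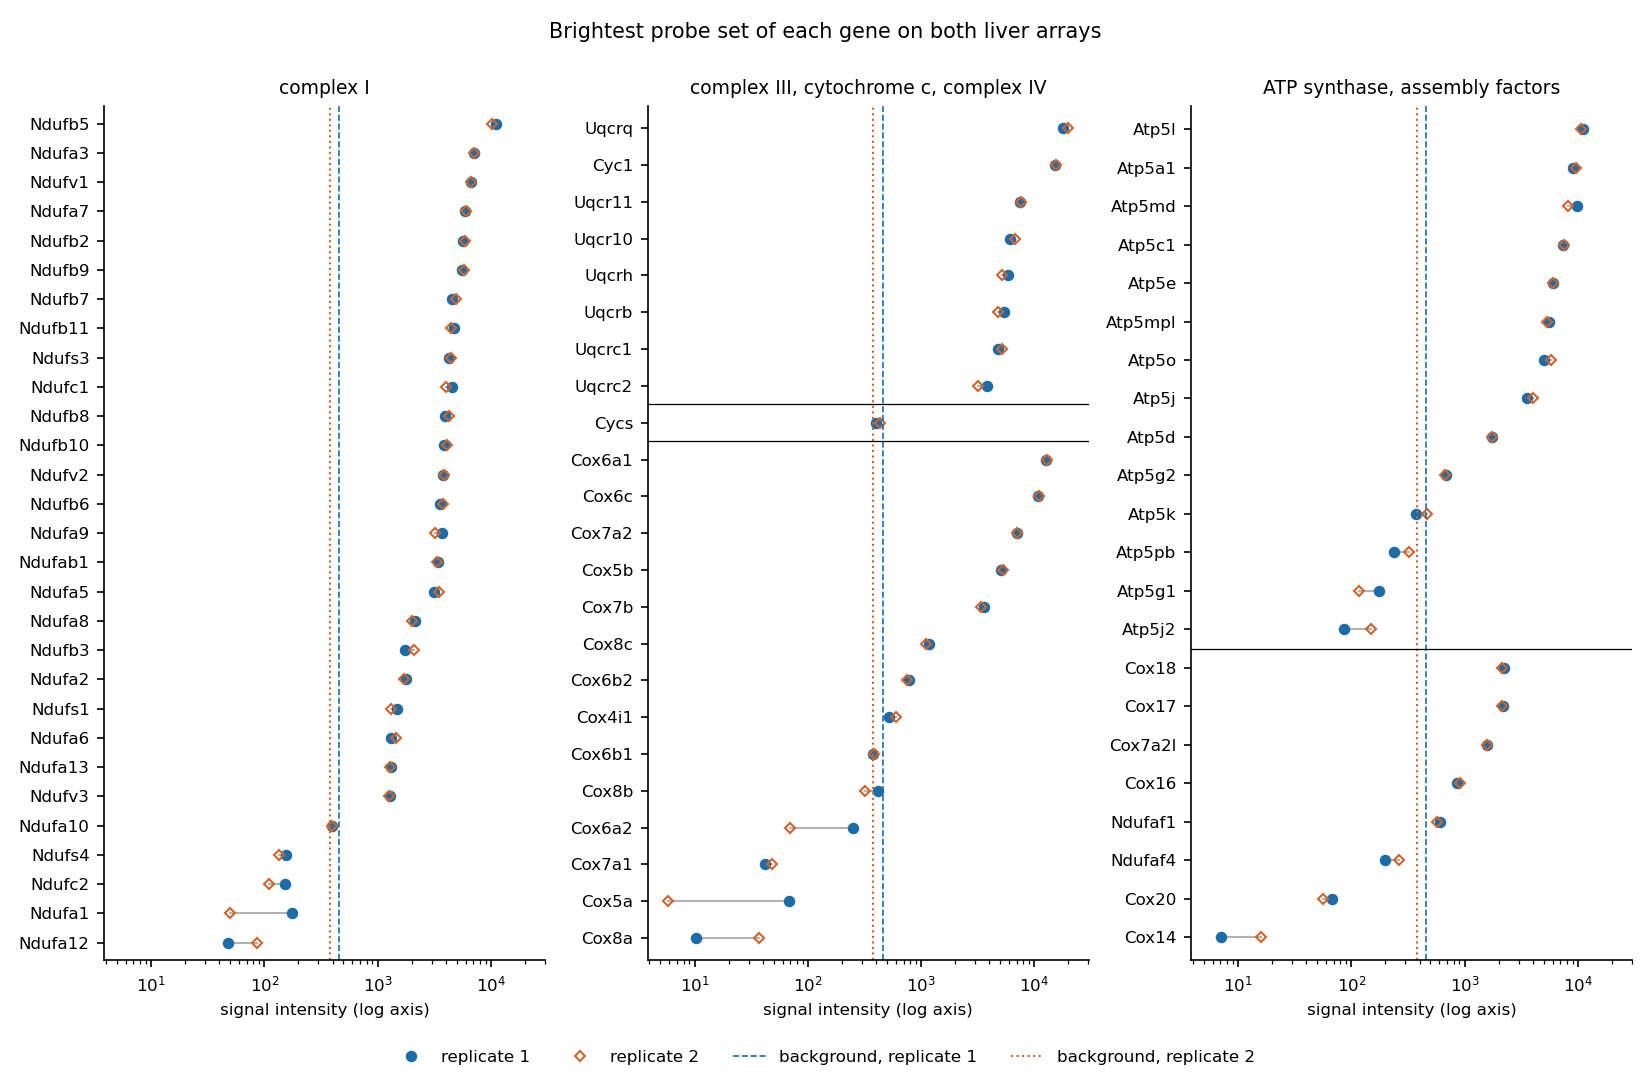
Signal intensity (log axis) of the brightest probe set of each of the 74 genes on replicate 1 (filled circles) and replicate 2 (open diamonds), by complex, with the background of each array as vertical lines. All 8 complex III genes lie right of both lines, while genes of complex IV run from 12941 (Cox6a1, replicate 2) down to 5.8 (Cox5a, replicate 2).

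Promoters were examined because these genes are commonly described as shared targets of NRF-1, of ETS family factors such as GABP, of YY1 and of Sp1. RefSeq windows of assembly GRCm38.p6, from 250 bases before to 50 after a gene's start, were matched by gene identifier for 59 of the 74 genes. They numbered 65 windows, since 6 genes had a second start, against 32851 windows of all genes. The NRF-1 motif GCATGCGC, on either strand, stood in 10 of the 65 windows (15.4%) and in 2.71% of all windows. The ETS motif CCGGAAG, searched like the others on both strands, stood in 18 windows (27.7%) against 8.86%, and the YY1 motif AAGATGGC in 9 (13.8%) against 2.75%. The Sp1 motif GGGCGG stood in 31 windows (47.7%) against 35.7%, CCAAT in 27 (41.5%) against 37.4%, and TATAAA in 7 (10.8%) against 13.6%. Member windows had a median GC content of 58.3%, against 52.7% in all windows, and its part in these shares was not tested. Of the 47 windows of genes above background and the 18 windows of the other genes, the ETS motif was in 13 and 5, the NRF-1 motif in 7 and 3, the YY1 motif in 5 and 4, the Sp1 motif in 23 and 8, CCAAT in 19 and 8, and TATAAA in 6 and 1. These splits were not tested.

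The 250 bases before the start are given for 5 genes. Cox7a2 and Cox7a1 are the liver and heart forms of the same complex IV subunit, which differed in whether they exceeded background. Cox6a1 and Atp5g2 carry the NRF-1 motif, and Uqcr11 of complex III carries the ETS motif. The positions are chr9:79759854-79760103 on the minus strand for Cox7a2, chr7:30183921-30184170 on the plus strand for Cox7a1, chr5:115348959-115349208 on the minus strand for Cox6a1, chr15:102671048-102671297 on the minus strand for Atp5g2, and chr10:80406822-80407071 on the minus strand for Uqcr11. Each is written 5′ to 3′ along its gene, and capitals mark matches to any of the 6 motifs on either strand.
Cox7a2: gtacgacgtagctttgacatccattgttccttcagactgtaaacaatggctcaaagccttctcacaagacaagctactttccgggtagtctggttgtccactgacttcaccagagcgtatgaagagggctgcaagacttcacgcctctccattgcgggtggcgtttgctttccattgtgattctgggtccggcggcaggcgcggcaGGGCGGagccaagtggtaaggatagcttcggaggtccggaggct
Cox7a1: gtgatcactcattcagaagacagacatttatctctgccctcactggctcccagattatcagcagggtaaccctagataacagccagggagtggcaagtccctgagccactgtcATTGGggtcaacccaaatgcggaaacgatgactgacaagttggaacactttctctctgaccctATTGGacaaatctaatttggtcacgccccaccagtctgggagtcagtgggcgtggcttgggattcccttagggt
Cox6a1: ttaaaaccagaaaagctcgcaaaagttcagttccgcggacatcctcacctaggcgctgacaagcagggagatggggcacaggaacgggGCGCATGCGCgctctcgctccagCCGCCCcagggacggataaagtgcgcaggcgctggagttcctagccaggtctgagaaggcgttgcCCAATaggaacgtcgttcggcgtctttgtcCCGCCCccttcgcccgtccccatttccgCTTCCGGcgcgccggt
Atp5g2: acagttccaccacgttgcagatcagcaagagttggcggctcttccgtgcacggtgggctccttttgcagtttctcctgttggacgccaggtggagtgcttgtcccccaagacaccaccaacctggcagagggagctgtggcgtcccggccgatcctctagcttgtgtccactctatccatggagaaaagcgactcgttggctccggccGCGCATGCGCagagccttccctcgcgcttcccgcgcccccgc
Uqcr11: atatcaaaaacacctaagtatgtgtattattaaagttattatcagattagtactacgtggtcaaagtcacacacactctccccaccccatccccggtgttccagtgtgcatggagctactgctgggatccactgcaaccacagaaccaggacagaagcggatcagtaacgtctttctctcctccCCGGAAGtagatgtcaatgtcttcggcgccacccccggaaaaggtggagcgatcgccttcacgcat

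In the printed stretch of Cox6a1 the NRF-1 motif begins 160 bases before the start on the printed strand and 162 bases before it on the opposite one, and these 2 matches overlap. The ETS motif, read on the opposite strand, begins 16 bases before the start. In Atp5g2 the NRF-1 motif matches on both strands in the same way, beginning 40 and 42 bases before the start, and the ETS motif of Uqcr11 begins 66 bases before its start. Cox7a2 has a single match, to the Sp1 motif, and Cox7a1 has 2 matches to CCAAT on the opposite strand. No matches to different motifs overlap in these stretches. A match is a description of the letters and not evidence of binding.

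Complex I was read from 38 probe sets of 29 genes, and 24 of the 29 were above background on both arrays. The median percentile of their brightest sets was 95.7. The 4 core subunits, which are conserved from bacteria and carry out electron transfer, were all above it. Ndufv1, which binds the flavin and oxidises NADH, gave 6649 on replicate 1 and 6699 on replicate 2. Ndufv2 and Ndufs1, which hold iron-sulphur clusters, gave 3748 and 3897, and 1473 and 1323. The other set of Ndufv2, of suffix f, gave 387.4 and 431.9, under the threshold of replicate 1 and over that of replicate 2. Ndufs3, a core subunit of the arm that reaches ubiquinone, gave 4254 and 4419. These core readings differed between the arrays by at most a factor of 1.11.

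Of the 25 accessory genes of complex I, 20 were above background. All 9 Ndufb genes, whose products belong to the membrane arm, were among them, with a median percentile of 96.8 for their brightest sets. The highest was Ndufb5 at percentile 98.7, with 11016 on replicate 1 and 10298 on replicate 2, from a set of suffix f. The lowest was Ndufb3, with 1755 and 2091. Of the 11 numbered Ndufa genes, 8 were above background. Ndufa3 gave 7077 and 7078 in its brighter set, and Ndufa7 gave 5895 and 6027. Ndufab1, the mitochondrial acyl carrier protein, gave 3388 and 3321. Ndufa13, also known as GRIM-19, gave 1311 and 1275.

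The 5 complex I genes not above background on both arrays were Ndufa1, Ndufa10, Ndufa12, Ndufc2 and Ndufs4. Ndufs4, an accessory subunit needed for a stable complex, gave 154.8 on replicate 1 and 134.4 on replicate 2. Ndufc2 gave 152.4 and 109, and Ndufa12 47.9 and 86.9. Ndufa10 gave 398 and 393.4, below the threshold of replicate 1 and above that of replicate 2. Both probe sets of Ndufa1, an X-linked subunit of the membrane arm, were dim and lower on replicate 2, at 174.1 and 49.8 in one and 71.1 and 17.2 in the other. Complex I had no brightest set between these 5 genes and Ndufv3, whose 1299 and 1266 were the lowest values of the genes above background.

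In complex III every measured gene was above background, 8 of 8 genes and 9 of 9 probe sets. Its genes lay between percentile 95.8 and 99.5. Uqcrq, a small subunit beside cytochrome b, gave 17906 on replicate 1 and 20006 on replicate 2, and held the highest percentile of all members. Cyc1, the haem-bearing cytochrome c1 that hands electrons to cytochrome c, gave 15366 and 15397 in its brighter set and 4156 and 3973 in its other one, of suffix r. Uqcr11 and Uqcr10, small accessory subunits, gave 7413 and 7639, and 6127 and 6705. The core proteins Uqcrc1 and Uqcrc2, which form the matrix side, gave 4824 and 5217, and 3842 and 3182. Uqcrh, the acidic hinge protein that contacts cytochrome c1, gave 5820 and 5184, and Uqcrb gave 5358 and 4741. Uqcrc2 was the lowest of them, and its 2 values differed by a factor of 1.21.

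Cytochrome c itself was near the background line. Cycs, the somatic cytochrome c, was read from a single probe set at 396.1 on replicate 1 and 432.6 on replicate 2, under the first threshold and over the second. The testis form Cyct, which the symbol rule does not take in, gave 16.9 and 11.8. Cycs passed on both arrays with the background at the 90th percentile of the same genes (335.2 and 300.7), and also when all probe sets of those genes set the threshold.

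Complex IV was read from 22 probe sets of 14 genes, of which 8 genes were above background on both arrays. The brightest sets had a median percentile of 79.9, and the 14 genes ran from percentile 10.1 to 99.02. Cox6a1 gave 12604 on replicate 1 and 12941 on replicate 2, from a set of suffix f. Cox6c gave 10879 and 10909 in its brightest set, and Cox5b, a zinc-binding subunit, 5126 and 5235. Cox7b gave 3576 and 3414. The 6 genes that were not above background were Cox5a, Cox6a2, Cox6b1, Cox7a1, Cox8a and Cox8b. Cox5a, a matrix-facing subunit, was dim in both of its probe sets, at 16.6 and 23.5 in one and 68 and 5.8 in the other.

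The isoforms of complex IV are described by the tissue each form is known from. None of the 3 heart and skeletal muscle forms was above background on both arrays, in any of their 4 probe sets. Over the whole array 31.8% of genes and 26.5% of probe sets with 1 gene name were above it, so counts this small do not set these forms apart. Cox7a1 gave 42.2 on replicate 1 and 48.6 on replicate 2, while its liver counterpart Cox7a2 gave 7010 and 7029. Cox6a2 gave 249.8 and 69.4, while its liver counterpart Cox6a1 was at percentile 99.02. Cox8b gave 417.5 and 322.7 in a set of suffix r and 113.8 and 77.7 in a plain one. Of the muscle and heart markers, those above background were Acta1 (803.3 and 676.3) and Pvalb (986.7 and 903.1), while Ckm, the muscle creatine kinase, gave 199 and 180.9 and Myh7 71.2 and 89.3. The 12 markers ran from 22.4 to 986.7 on replicate 1 and from 23.8 to 903.1 on replicate 2, and they also belong to the genes that set the background. With the background at the 90th percentile of those genes, Cox8b passed on both arrays.

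Both testis forms had a probe set above background, and both also had sets below it, with 2 of their 5 sets above. Against 31.8% of genes and 26.5% of probe sets over the whole array, counts this small do not set these forms apart either. Cox8c gave 1169 on replicate 1 and 1109 on replicate 2 in a plain set, at percentile 88.2, and 11.6 and 6.1 in a set of suffix f. Cox6b2 gave 776.3 and 749.4 in a set of suffix f, 163.9 and 233.3 in a set of suffix i and 136.5 and 72.1 in a set of suffix r. Suffixes f and s mark sets whose probes are shared with similar transcripts, r and i sets picked under relaxed rules or with fewer probes, and g sets common to a group. With the background at the 99th percentile of the off-tissue genes (984.2 and 887.2), Cox6b2 was no longer above it and Cox8c still was. Among the testis markers, the spermatid genes Prm1 (38.1 and 20.6) and Prm2 (23.3 and 30.7), the testis lactate dehydrogenase Ldhc (6.5 and 8.6) and Pgk2 (41.6 and 71.9) were not above background, and Tnp1 was (1165 and 1043). These 5 also belong to the genes that set the background, and the part of other cells in the Cox8c and Cox6b2 signals was not tested.

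The widely expressed counterparts were not bright in every family. Cox8a, read from a single set, gave 10.2 on replicate 1 and 37.1 on replicate 2, the lowest percentile of any subunit gene. Cox6b1 gave 379.7 and 382.7 in a set of suffix r, under the threshold of replicate 1 and over that of replicate 2. Cox4i1, the largest nuclear subunit of the complex, gave 525.4 and 605.5 in a set of suffix f and 166.9 and 171.9 in a plain one, and it lost its call with the background at the 99th percentile. In the Cox8 and Cox6b families the form with a set above background was the one named for testis, and in the Cox6a and Cox7a families it was the liver form. At the 90th percentile Cox6b1 passed as well. Different probe sets cannot be set against each other as levels of the isoforms.

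**Figure D2:**
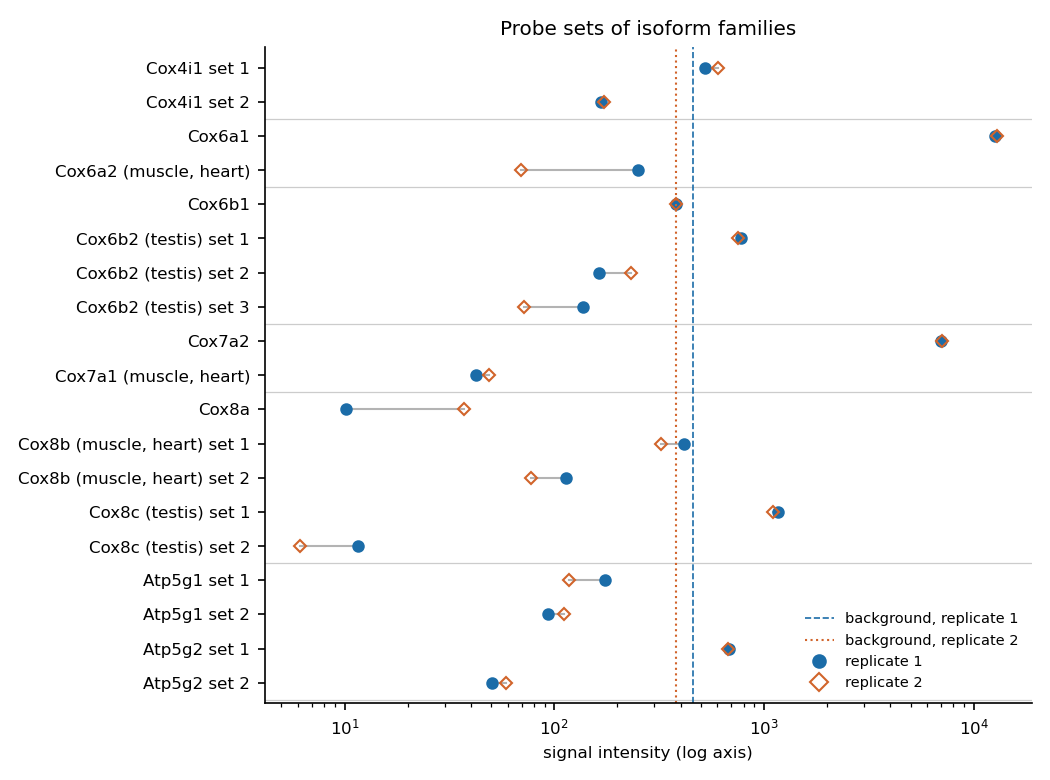
Signal intensity (log axis) of every probe set of the Cox4i, Cox6a, Cox6b, Cox7a, Cox8 and Atp5g families on replicate 1 (filled circles) and replicate 2 (open diamonds), with the background of each array as vertical lines. The muscle and heart forms Cox6a2, Cox7a1 and Cox8b lie left of the line of their array in every set, Cox6a1 and Cox7a2 lie far right, and Cox8a lies near the left edge.

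ATP synthase was read from 22 probe sets of 14 genes, of which 10 genes were above background. All 4 genes of the catalytic head and central stalk were above it. Atp5a1, the alpha subunit, gave 9049.9 on replicate 1 and 9681 on replicate 2. Atp5c1, the gamma subunit that turns inside the head, gave 7347 and 7603 in a set of suffix g and 3518 and 4161 in a plain one. Atp5e, the epsilon subunit, gave 6084 and 6005. Atp5d, the delta subunit, had 5 probe sets. Its 3 sets of suffix f were above background, the brightest at 1746 and 1736, and its 2 plain sets were not, at 205.8 and 193.2 and at 108.6 and 30.8.

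Of the 10 genes of the peripheral stalk and membrane part, 6 were above background. Atp5l, subunit g at the interface between paired enzymes, gave 10992 on replicate 1 and 10659 on replicate 2 (plain set). Atp5md gave 9879 and 8152, Atp5mpl 5591 and 5349, and both are small membrane subunits. Atp5o, which links the peripheral stalk to the head and gives oligomycin sensitivity, gave 5063 and 5800, and Atp5j, coupling factor 6, gave 3586 and 4009. Atp5pb, the b subunit that forms most of the peripheral stalk, was not above background at 239.2 and 322.8, and neither was Atp5j2 at 86.5 and 149.3. Atp5k passed on replicate 2 alone, at 373.3 and 469.6.

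The c subunit, whose copies form the rotating ring, was represented by Atp5g1 and Atp5g2, genes that encode the same mature protein with different import sequences. Atp5g2 gave 684.7 on replicate 1 and 670.2 on replicate 2 in a set of suffix f, and 50.4 and 58.8 in a plain set. Both sets of Atp5g1 were under background, at 175.3 and 117.2 and at 93.7 and 111. The call of Atp5g2 rested on the set of suffix f and was lost with the background at the 99th percentile.

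Of the 8 assembly genes, 5 were above background. Cox17, the copper chaperone of complex IV, gave 2198 on replicate 1 and 2134 on replicate 2. Cox18, which inserts a mitochondrially encoded subunit into the membrane, gave 2241 and 2137 in its plain set and 1.6 and 27.4 in a set of suffix r. Cox7a2l, which joins complexes III and IV into supercomplexes, gave 1585 and 1574, and Cox16 gave 864 and 906.4. Ndufaf1, a complex I assembly factor, gave 611.3 and 571.7 in one set and 31.6 and 47.5 in the other. Ndufaf4 (199.8 and 264.4), Cox20 (67.9 and 56.3) and Cox14 (7.1 and 15.8) were not above background. The other set of Ndufaf4, of suffix r, gave 20.6 and 32.3.

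Across the complexes, 19 genes had no probe set above background on both arrays. They comprised the 3 muscle and heart isoforms, 3 assembly genes and 13 other subunit genes. The 13 were Ndufa1, Ndufa10, Ndufa12, Ndufc2, Ndufs4, Cycs, Cox5a, Cox6b1, Cox8a, Atp5g1, Atp5j2, Atp5k and Atp5pb. Of the 19 genes, 14 were read from a single probe set. With the background at the 90th percentile of the off-tissue genes, Atp5k, Cox6b1, Cox8b, Cycs and Ndufa10 passed. A gene under the threshold is not thereby absent from the RNA.

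Probe sets of the same gene often disagreed. Of the 22 member genes with more than 1 set, 15 had sets that differed over 4-fold in geometric mean signal, against 1097 of 2073 such genes on the whole array. In 15 of the 17 such genes with a set above background (88.2%), another set was not above it, and over all genes of the array this was so for 693 of 853 (81.2%). The widest gap was in Ndufb2, where 2 sets gave 5685 and 5957, and 5316 and 5789, and 2 others gave 5.5 and 10.1, and 6.2 and 3.5. Ndufb6 gave 3586 and 3796 in its plain set and 3.6 and 33.6 in a set of suffix r. Ndufb10 gave 3869 and 4126 in one set and 25.7 and 7.7 in the other, of suffix f. Ndufb7 was read from 2 plain sets, at 4584 and 4923 and at 20.1 and 42.5. The second set of Atp5l (125.6 and 151), the dimmer set of Ndufa3 (314.6 and 203.2) and the dimmest set of Cox6c (17.7 and 111.9) were also under background.

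The kind of probe set went with the call. Of the 12 member sets of suffix r, 2 were above background (16.7%), against 13.8% of all sets of that suffix. Of the 20 sets of suffix f, 14 were (70%), against 24.2% of all such sets, and of the 66 plain sets 41 were (62.1%), against 27.7%. Among the 15 member sets annotated with an accession that begins with AV, 4 were above background (26.7%), against 10.3% of all such sets. Of the 74 sets with another accession 48 were above it (64.9%), against 28.5%, and of the 14 with none listed 9 were (64.3%), against 19.9%. Ndufb6, Ndufb7 and Cox18 each had their dim set from the AV group. The 4 AV sets above background belonged to Atp5d, Cyc1 and Cox6c, and the dimmest set of Cox6c was not of the AV group.

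**Figure D3:**
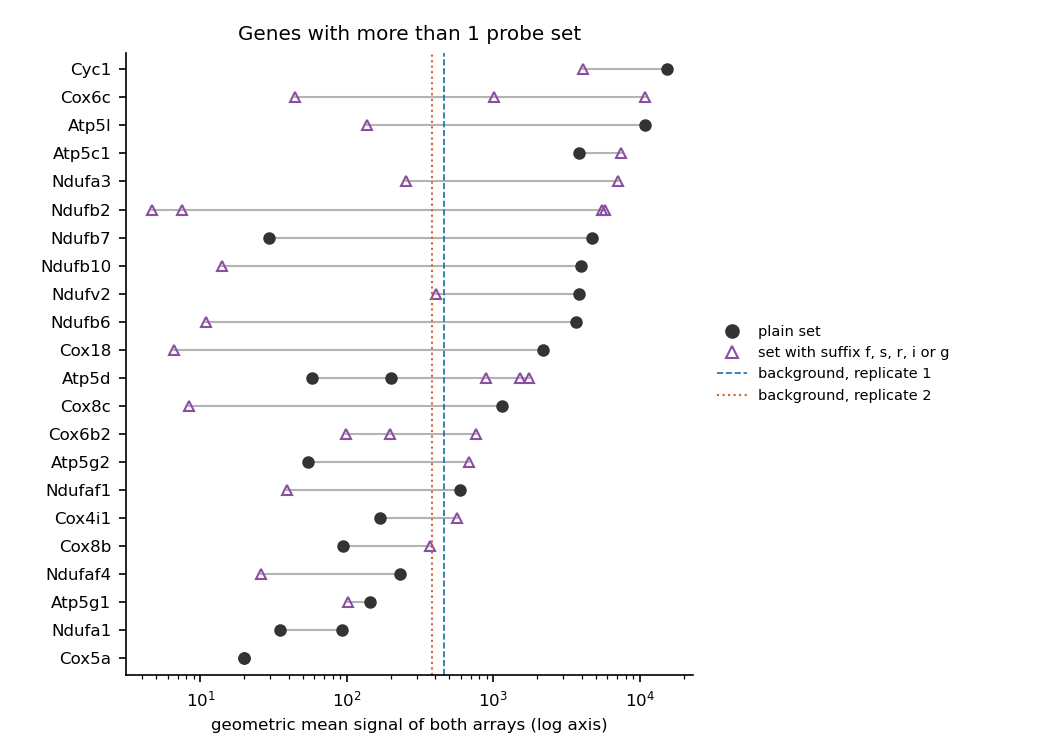
Geometric mean signal of both arrays (log axis) for every probe set of the 22 genes with more than 1 set; circles are plain sets, triangles are sets with any suffix, and vertical lines are the background of each array. Ndufb2 spans the widest range, Cyc1 and Atp5c1 have both sets right of the lines, and the 2 sets of Cox5a coincide.

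The 2 arrays agreed closely for the members above background. Among these 61 probe sets the median log2 difference, replicate 2 minus replicate 1, was 0.0098, with quartiles of -0.058 and 0.10. Of them 34 (55.7%) were higher on replicate 2, against 51.7% of all sets above background. The largest ratio between arrays was 1.26, for the set of Atp5d at 795.4 and 1001, and 45 of the 61 sets lay within a factor of 1.1. The SD of the log2 difference was 0.13, against 0.22 for all 2872 sets above background. The median absolute log2 difference was 0.070, against 0.129 for all those sets. In the middle signal range of the members (1747 to 5960), where brightness was alike, it was 0.088 for 31 members and 0.096 for 612 probe sets of the array. The SD in that range was 0.133 for these members and 0.180 for these probe sets. None of the 61 sets passed 2-fold, against 0.139% of all sets above background.

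All 12 member sets that differed over 2-fold between the arrays were among the 42 that were not above background, 6 higher and 6 lower on replicate 2. They made up 11.7% of the members, against 17.4% of all probe sets with 1 gene name, and 28.6% of the members not above background, against 23.6% of all such sets. The largest were the dim sets of Cox18 (1.6 and 27.4), Cox5a (68 and 5.8) and Ndufb6 (3.6 and 33.6). The others were both sets of Ndufa1, the single sets of Cox6a2, Cox8a and Cox14, and dim sets of Cox6c, Atp5d, Ndufb10 and Ndufb7. The size of these differences has no replicate check, and signals this low carry no order.

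**Figure D4:**
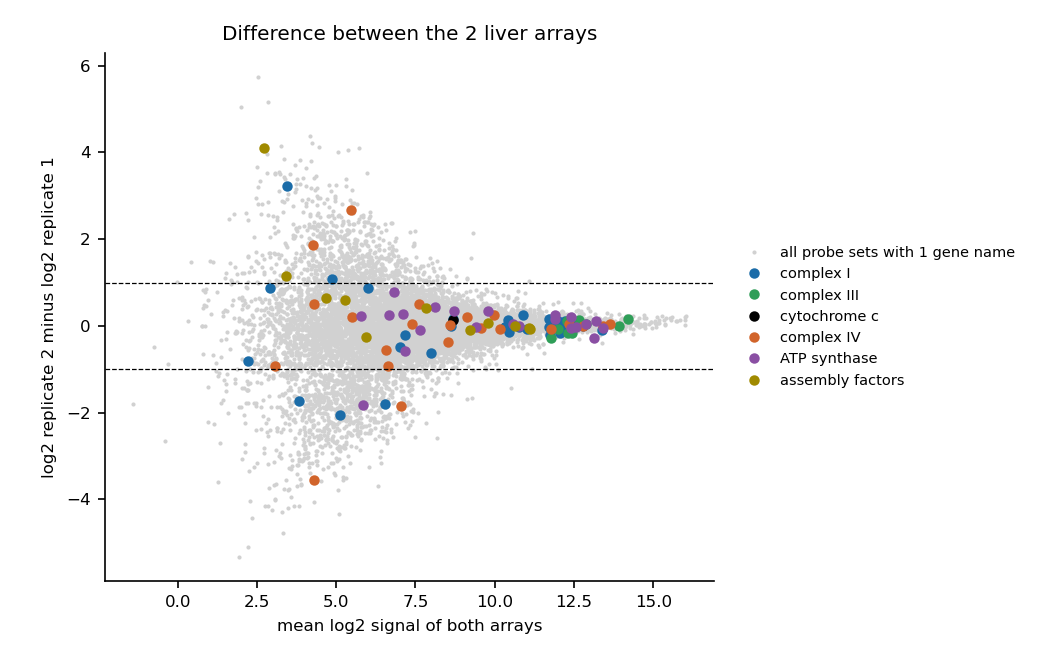
Difference between arrays (log2 replicate 2 minus log2 replicate 1, after subtracting the median difference of the brighter 50% of probe sets) against the mean log2 signal, with members coloured by complex over all probe sets with 1 gene name in grey and dashed lines at 2-fold. Members at the bright end lie near 0, and the 12 beyond the lines lie at the dim end.

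Other genes of the pathway were above background by their brightest set in 16 of 28 measured cases, the member Ndufaf1 included. Over the whole array this was so for 31.8% of genes, and the lists of single steps hold few genes each. All 4 complex II genes were above it, with Sdhd at 7785 on replicate 1 and 8593 on replicate 2, Sdhb, the iron-sulphur subunit, at 7152 and 7474, Sdhc at 5683 and 6275, and Sdha, the flavoprotein that oxidises succinate, at 807.7 and 771.2. All 5 genes that feed electrons to ubiquinone were above it by their brightest set, from Etfb (6387 and 7680) to Gpd2 (471 and 496). Gpd2 was read from a single set of suffix f, close to the threshold of replicate 1. Etfb and Dhodh each had 1 of 2 sets above background, for Dhodh a set of suffix r. The assembly genes Surf1 (1035 and 1016) and Lrpprc (1300 and 1476) and the ATP synthase inhibitor Atpif1 (1377 and 1297) were also above it.

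Of the 8 measured carriers and pores, 2 were above background. Over the whole array 31.8% of genes were, by their brightest set, so counts this small do not set the carriers or the regulators apart. The 2 carriers and pores above it were the adenine nucleotide carrier Slc25a5 and the pore Vdac3 (856.7 and 810.4). Slc25a5 gave 2233 on replicate 1 and 1568 on replicate 2 in the brightest of its 3 sets. Only that set of Slc25a5, of suffix f, was above background. The muscle and heart adenine nucleotide carrier Slc25a4 gave 357.8 and 252.5, and the phosphate carrier Slc25a3 162.1 and 132.9. The brown fat uncoupler Ucp1 gave 32.7 and 70.7. Of 6 measured regulators, Esrra, an orphan nuclear receptor, was above background at 946.1 and 1015, in 1 of its 2 sets. Tfam, the packaging and transcription factor of mitochondrial DNA, gave 24.8 and 12.9, the coactivator Ppargc1a 74.5 and 48, and Gabpa, a subunit of the ETS factor GABP, 312.6 and 306.4.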

How the data were processed

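Total RNA titled liver was hybridised to 2 arrays. The deposited table holds linear signal intensity, 1 value per probe set and array. How the authors scaled and summarised it is not given in the sources used here, so neither step was varied, which matters most for dim sets. Of 12488 probe sets, 66 are controls; the platform annotation names 1 gene for 10833 of the others. All 74 member genes matched the RefSeq table of assembly GRCm38.p6 by gene identifier, with 0 symbols changed. Coordinates are those of the RefSeq promoter table alone, since no build accompanies the probe annotation.

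Differences are log2(replicate 2) minus log2(replicate 1), less the median over the brighter 50% of non-control sets (-0.0058). Background used 108 of 119 listed off-tissue genes, each by its brightest set; 5 of them (Acta1, Crybb2, Pcp2, Pvalb and Tnp1) exceed it on both arrays. The members, lists, promoter motifs and printed promoters were chosen with earlier results or counts from these data known. Values are named by rule: the 3 brightest and the lowest gene of each complex, isoform families, genes not above background, sets past 2-fold and genes with sets on both sides of the background or over 4-fold apart; further members are named for their role. Alternatives concerned the background, probe sets, normalization and log offset. The shift, the 2-fold calls and the percentiles were tested on simulated data, and the background threshold was not. The simulated noise was the same at every signal, so the larger differences of dim sets were not covered. Python 3.11.15, numpy 2.4.6, pandas 2.3.3 and matplotlib 3.10.9 were used.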

Additional observations from a re-analysis of the deposited data

Results flagged for a closer look

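Probe sets that name several genes were not members, and 8 of the 11 that include a respiratory chain or ATP synthase symbol carried signal above the background of both arrays. The share above background over all 396 sets that name several genes was not computed, so whether 8 of 11 is unusual for them is unknown. Among all probe sets with 1 gene name it was 26.5%. The 2 sets named for Cox7c, a complex IV subunit, and Gm12338 gave 22253 on replicate 1 and 24165 on replicate 2, and 20009 and 19260. The set of Atp5c1 and its pseudogene gave 14082 and 13187. Those of Ndufs6 and Ndufs6b gave 7246 and 7249, and 4364 and 4759. The set of Ndufs5 and its pseudogene gave 2422 and 2443, that of Ndufa11 and Ndufa11b 1818 and 1604, and that of Ndufab1 and its pseudogene 1410 and 1421. These signals cannot be assigned to 1 gene of each group.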

How the results depend on the processing

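The count of member probe sets above background, 61 of 103, was 54 with the background at the 99th percentile and 67 at the 90th. Without either array it ran from 61 to 66. Among fewer sets it was 41 of 66 plain sets, 56 of 92 subunit sets and 55 of 74 with 1 probe set per gene. All 8 alternatives stayed within 1.5 times of 61, but counts from fewer sets are no measure of stability. By genes, 60 passed at the 90th percentile, with Atp5k, Cox6b1, Cox8b, Cycs and Ndufa10 added, and 50 at the 99th, with Atp5g2, Cox16, Cox4i1, Cox6b2 and Ndufaf1 lost. The median percentile moved by more than the SD between the arrays (0.18) to 94.6 with 1 probe set per gene, 90.5 for subunits alone and 91.4 with plain sets alone, which rank other or fewer probe sets. It was 89.3 without replicate 1, a move past that SD, and 89.5 without replicate 2. The SD was made from these same 2 values, so it is no separate measure of their move. The count past 2-fold, 12, fell to 5 with 1 probe set per gene, to 6 with log2(value + 32), which shrinks differences of dim sets, and to 0 among sets above background; the first and last of these count fewer sets. The median log2 difference of all members was 0.036, and -0.0086 after quantile normalization, both within the spread between arrays. With 1 array left out no difference between arrays exists, so those values were not computed. No paired analysis was possible because the labels define 1 group. Signal near the background limits every call between about 380 and 460.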
